A study of Mus musculus with 6 samples.

Results

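Sterol and fatty acid synthesis genes, together with genes of the liver X receptor (LXR) pathway that exports sterols, were followed in mouse group 2 innate lymphoid cells (ILC2), the innate source of type 2 cytokines. The members are 36 genes taken by symbol: 18 sterol synthesis enzymes, 6 sterol regulators and carriers, 8 fatty acid synthesis genes and 4 LXR and export genes. Of these, 35 were matched by symbol to the 37991 counted Ensembl identifiers, and all 35 passed the filter on low counts. Hmgcs1, the cytosolic HMG-CoA synthase, was not matched, so its counts are not analysed here, which leaves 17 sterol enzymes with values; its promoter is included among the windows searched. The cells were sorted as Lin-Thy1+ST2+ and sequenced in 3 groups of 2 libraries: cells of the mesenteric lymph nodes (MLN) kept for 1 week with 10 ng/ml each of the cytokines IL-33, IL-25 and IL-7, cells taken directly from thymus, and cells taken directly from MLN (fresh MLN). Every mouse, in all 3 groups, was homozygous for an Id1 transgene driven by the proximal lck promoter, on a line made in FVB/N and crossed back to C57BL/J for 10 generations or more, and was kept on regular diet. T cell development is blocked and ILC2 are expanded in such mice, per the labels; their ages are not stated and no mice without the transgene are in the design, so what the transgene itself does to these genes cannot be told apart from the cell type. About 300000 cells went into each sample.

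Cells make cholesterol from acetyl-CoA through mevalonate, farnesyl pyrophosphate, squalene and lanosterol. The transcription factors SREBP-1 and SREBP-2, the products of Srebf1 and Srebf2, drive the genes of this pathway and of fatty acid synthesis: when membrane sterol is low, the escort protein SCAP carries them from the endoplasmic reticulum to the Golgi, where they are cut and released, and when sterol is high the INSIG proteins hold them back. LXR nuclear receptors sense oxidised sterols and switch on the exporters ABCA1 and ABCG1 and the ubiquitin ligase MYLIP, which removes lipoprotein receptors from the cell surface. In T cells, activation and division are known to go with more sterol synthesis and less LXR activity.

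Total counts ran from 35280692 to 40578264 per library, so that 3 counts equal 0.0739 to 0.0905 CPM, the normalised read count used here. The labelled cell type was checked on its markers. Gata3, the lineage-defining transcription factor, stood at 1034 and 1064 CPM in cultured cells, 648 and 673 CPM in thymus and 622 and 599 CPM in fresh MLN, and Il1rl1, which encodes the sorted ST2, had at least 1444 CPM in every library. None of the 11 ILC2 markers was at 0 in any group, but they did not move together. In cultured over fresh MLN cells 7 were higher and 3 lower (39.4% and 38.1% over all genes). The 3 lower were Thy1 (113 against 335 CPM on average), Il7r (852 against 2281 CPM) and Rora (146 against 611 CPM). In thymus over fresh MLN 2 were higher and 5 lower (25.3% and 22.0% over all genes), Klrg1 among the lower (31.6 against 79.3 CPM). Areg averaged 463 CPM in cultured cells, 0.510 CPM in thymus and 0.993 CPM in fresh MLN. The sum of 15 macrophage and monocyte markers was 25.8 to 28.3 CPM in cultured cells, 10.7 to 16.1 CPM in thymus and 92.2 to 99.7 CPM in fresh MLN. Cybb, a phagocyte oxidase subunit, made up most of the fresh MLN sum, and without it, a choice made after its values were seen, the other 14 markers summed to 25.7 and 28.2 CPM in cultured cells, 10.2 and 15.3 CPM in thymus, and 19.9 and 32.9 CPM in fresh MLN. The sum of 10 dendritic cell markers was 49.8 to 52.7 CPM in cultured cells, 20.2 to 22.8 CPM in thymus and 40.4 to 43.9 CPM in fresh MLN, that of 7 B cell markers 116 to 129.7, 74.5 to 81.7 and 155 to 199.6 CPM in the same 3 groups, and that of 10 T cell and thymocyte markers 55.0 to 63.4, 98.0 to 98.6 and 111 to 118 CPM. The sum of 12 cell cycle genes was 1862 and 2009.8 CPM in cultured cells, 2172 and 2009 CPM in thymus, and 228 and 199.9 CPM in fresh MLN. CPM values are on TMM-scaled library totals, and a gene is called higher or lower where its adjusted p is under 0.05 (edgeR quasi-likelihood F test with Benjamini-Hochberg adjustment over 16231 genes, the test behind every adjusted p here). These are bulk samples, so fewer cells expressing a gene and less RNA per cell cannot be told apart. Whether libraries of 1 group were made from different animals or cultures is not stated, and a p value therefore speaks for the spread among the 6 libraries alone, which may be technical.

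Promoters of 6 members are shown because their genes moved together or apart in the results that follow: Mvk, Msmo1 and Hsd17b7, sterol enzymes higher in culture; Insig1, the sterol regulator with the highest fold change in culture; Fasn of fatty acid synthesis; and Mylip, an LXR target lower in culture. Each runs from 250 bases before to 50 bases after the gene's start (RefSeq, build GRCm38.p6), 5′ to 3′ along the gene, with every CCAAT box in capitals, written CCAAT or, on the other strand, ATTGG.
Mvk, chr5:114444019-114444318, plus strand: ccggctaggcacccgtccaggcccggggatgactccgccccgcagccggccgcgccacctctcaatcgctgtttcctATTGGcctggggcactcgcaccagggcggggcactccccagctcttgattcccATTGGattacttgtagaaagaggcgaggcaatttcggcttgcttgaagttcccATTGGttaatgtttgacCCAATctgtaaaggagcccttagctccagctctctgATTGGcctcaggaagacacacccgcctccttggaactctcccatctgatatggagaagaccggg
Msmo1, chr8:64733529-64733828, minus strand: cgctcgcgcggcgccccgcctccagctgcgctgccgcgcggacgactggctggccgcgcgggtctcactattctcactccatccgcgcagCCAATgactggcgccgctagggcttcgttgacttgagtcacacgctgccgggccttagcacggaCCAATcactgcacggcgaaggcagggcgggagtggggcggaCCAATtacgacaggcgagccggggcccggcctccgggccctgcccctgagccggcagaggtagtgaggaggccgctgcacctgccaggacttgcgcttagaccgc
Hsd17b7, chr1:169969156-169969455, minus strand: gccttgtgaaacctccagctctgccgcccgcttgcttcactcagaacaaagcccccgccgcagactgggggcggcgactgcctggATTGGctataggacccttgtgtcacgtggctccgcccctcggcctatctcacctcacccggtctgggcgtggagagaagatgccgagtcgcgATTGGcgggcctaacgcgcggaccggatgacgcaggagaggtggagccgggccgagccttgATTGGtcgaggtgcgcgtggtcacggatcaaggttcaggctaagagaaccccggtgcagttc
Insig1, chr5:28071162-28071461, plus strand: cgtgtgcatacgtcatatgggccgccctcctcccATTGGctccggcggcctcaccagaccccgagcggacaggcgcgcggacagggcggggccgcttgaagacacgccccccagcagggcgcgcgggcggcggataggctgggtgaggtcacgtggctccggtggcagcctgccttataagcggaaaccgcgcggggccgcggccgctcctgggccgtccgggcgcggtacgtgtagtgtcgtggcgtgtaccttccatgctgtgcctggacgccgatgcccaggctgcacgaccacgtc
Fasn, chr11:120824498-120824797, minus strand: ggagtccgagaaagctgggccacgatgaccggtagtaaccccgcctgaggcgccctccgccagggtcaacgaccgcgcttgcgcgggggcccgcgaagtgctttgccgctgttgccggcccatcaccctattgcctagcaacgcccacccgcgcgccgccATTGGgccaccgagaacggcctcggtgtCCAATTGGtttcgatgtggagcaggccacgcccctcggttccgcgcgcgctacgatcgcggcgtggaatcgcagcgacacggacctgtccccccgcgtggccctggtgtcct
Mylip, chr13:45389492-45389791, plus strand: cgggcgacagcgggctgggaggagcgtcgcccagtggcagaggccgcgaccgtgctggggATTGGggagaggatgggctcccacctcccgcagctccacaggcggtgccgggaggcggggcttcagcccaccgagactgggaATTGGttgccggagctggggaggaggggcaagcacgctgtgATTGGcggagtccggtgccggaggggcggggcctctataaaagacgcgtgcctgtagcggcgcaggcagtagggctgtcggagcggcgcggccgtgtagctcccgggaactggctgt
A CCAAT box binds NF-Y, a factor known to work with SREBP at sterol genes. It was found on either strand in 14 of 15 sterol enzymes with a window (93.3%; Acat2 had none), 4 of 5 regulators, 4 of 6 fatty acid genes and 1 of 3 LXR and export genes, against 41.1% of all 27025 genes with a window; Hmgcs1 is among the 14. At least 2 boxes stood in 9 of the 15 sterol enzymes, against 13.3% of all genes. In Fasn, CCAAT and ATTGG overlap in one run and are counted as 2 of its 3 matches. Mylip, whose level went the other way in culture, also held 3 boxes. The promoters printed are examples, and the number of boxes was not tested against the change in culture. Mvk held 5 boxes at a log2 fold change of 1.89 in cultured over fresh MLN cells. Idi1 held 2 at 3.47, Lss 1 at 3.10 and Acat2 0 at 2.02. The strict sterol regulatory element core TCACNCCAC, searched on both strands, was in 1 of the 15 sterol enzymes (Hmgcs1), in none of the members of the other classes and in 1.44% of all genes. The E-box CACGTG, whose match is the same on both strands and which SREBP-1 can also bind, was in 3 of 15 sterol enzymes, 2 of 5 regulators, 0 of 6 fatty acid genes and 1 of 3 LXR and export genes, against 8.09% of all genes. The LXR half-site AGGTCA was in 2 of 15, 1 of 5, 2 of 6 and 0 of 3 genes of the same classes, against 18.1% of all genes, and a repeat of it spaced by 4 bases was in no member and in 0.0148% of all genes. These are matches of letters in short windows and show neither binding nor its absence. Promoters of Fdps, Fdft1, Sqle, Stard4, Scd1, Scd2 and Abcg1 are not shown.

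In culture the whole measured sterol pathway was raised, from acetoacetyl-CoA to cholesterol. All 17 sterol enzymes were higher in cultured than in fresh MLN cells, with log2 fold changes between 0.30 and 4.36 and a median of 2.02. Over all genes tested the median was -0.01, 77.6% of genes were called, 39.4% higher and 38.1% lower, so single calls are frequent in this comparison. Over all 35 members, 29 were higher, 5 lower and 1 not called. The summed level of the 17 enzymes was 1502 and 1475 CPM in cultured cells, against 434 and 403 CPM in fresh MLN, a ratio of group means of 3.55. Cultured cells also had 9.06 times the summed cell cycle genes of fresh MLN, with all 12 of those genes higher. Of the 11 macrophage and monocyte markers tested, 3 (Adgre1, Cd68 and Itgam) were higher and 7 lower in culture, and the summed level was 0.282 times that of fresh MLN, a ratio that rests on Cybb; C1qc, Mertk and Ms4a7 were at 0 in culture. The part of the cell cycle genes and of these markers in the sterol result was not tested.

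**Figure D1:**
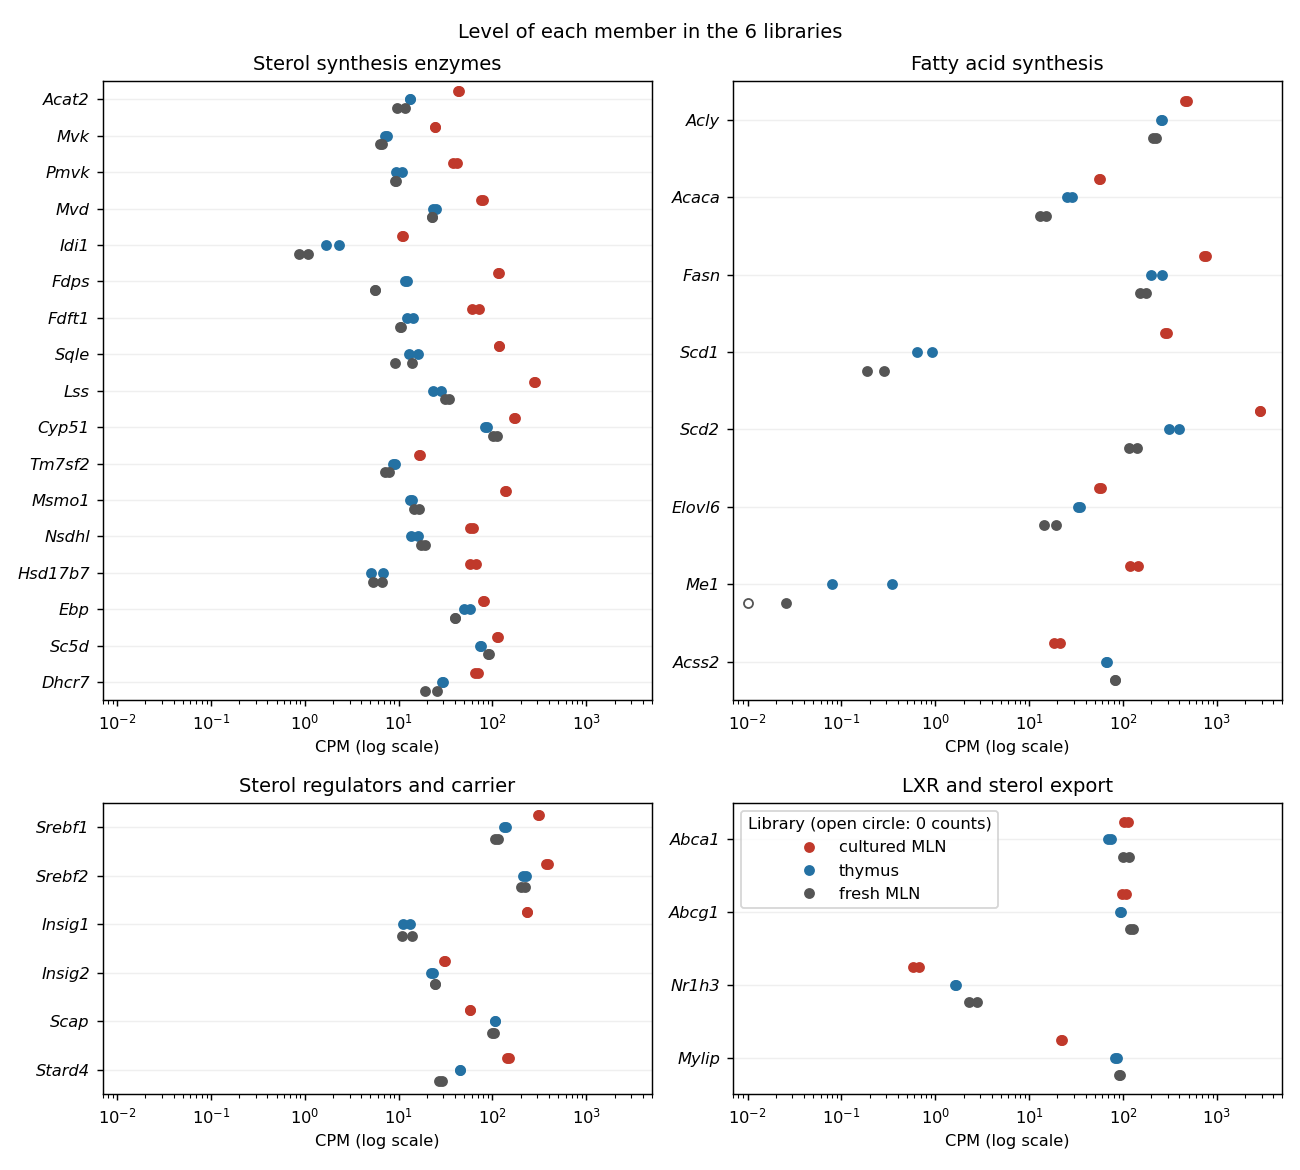
Level of each of the 35 measured members in CPM (log axis) in the 2 cultured MLN, 2 thymus and 2 fresh MLN libraries, in 4 panels by class; 1 point is 1 library, and the open circle for Me1 marks a fresh MLN library with 0 counts, drawn at the left edge. The 2 libraries of a group lie close together, all 17 sterol enzymes are furthest right in culture, and Scd1 and Me1 span the widest range.

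The early steps, from acetoacetyl-CoA to farnesyl pyrophosphate, had a median log2 fold change of 2.07 over 6 enzymes in cultured over fresh MLN cells. Fdps (ENSMUSG00000059743), the farnesyl pyrophosphate synthase, had 114 and 118 CPM in cultured cells, 11.7 and 12.3 CPM in thymus, and 5.65 and 5.60 CPM in fresh MLN. Both cultured libraries lay far above the others and the thymus libraries lay above fresh MLN, with no overlap between any 2 groups. Its log2 fold change in cultured over fresh MLN cells was 4.36 ± 0.09 (SE; adjusted p = 9e-14), the highest of the sterol enzymes. Idi1, the isopentenyl pyrophosphate isomerase, had 11.0 and 10.8 CPM in cultured cells, 2.32 and 1.70 CPM in thymus, and 1.08 and 0.876 CPM in fresh MLN. Again the groups did not overlap, and its log2 fold change in culture was 3.47 ± 0.21 (adjusted p = 4.21e-09). Acat2, the acetoacetyl-CoA thiolase that opens the pathway, and the mevalonate-handling enzymes Mvk, Pmvk and Mvd had log2 fold changes from 1.79 to 2.12. Mvk, whose promoter with 5 CCAAT boxes is printed above, had 24.3 and 24.2 CPM in cultured cells, 7.57 and 7.21 CPM in thymus, and 6.73 and 6.35 CPM in fresh MLN. Its cultured libraries stood apart from all 4 others, and it was higher than in fresh MLN by 1.89 ± 0.11 on the log2 scale (adjusted p = 2.55e-09). Counts of Acat2 and Idi1 are uncertain, since stretches of their transcripts have near-identical copies elsewhere (Acat3 for Acat2, pseudogenes for Idi1). A predicted gene overlaps 26.7% of the exon length of Fdps on the same strand.

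The squalene and lanosterol steps rose most as a segment, with a median log2 fold change of 3.10 over 3 enzymes. Lss (ENSMUSG00000033105), which closes the ring to lanosterol, had 287 and 277 CPM in cultured cells, 28.2 and 23.0 CPM in thymus, and 34.8 and 31.1 CPM in fresh MLN. The cultured libraries were far above both other groups, while both thymus libraries lay below both fresh MLN libraries. Its log2 fold change in cultured over fresh MLN cells was 3.10 ± 0.09 (adjusted p = 4.5e-12). Sqle, the squalene epoxidase that is a rate-controlling step after mevalonate, had 116 and 118 CPM in cultured cells, 16.1 and 13.0 CPM in thymus, and 13.7 and 9.22 CPM in fresh MLN. Thymus and fresh MLN overlapped, and the cultured libraries were above both by 3.35 ± 0.14 on the log2 scale over fresh MLN (adjusted p = 1.33e-10). Fdft1, the squalene synthase, rose by 2.66 ± 0.10, with the limit that its exons overlap those of Ctsb on the opposite strand over 18.3% of their length and a pseudogene matches 33.8% of its transcript, and the strand setting of the counting is not known.

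The steps from lanosterol to cholesterol were uneven, with log2 fold changes in culture between 0.30 and 3.37 over 8 enzymes. Hsd17b7 and Msmo1 rose most. Msmo1, the sterol C4-methyl oxidase, had 139.7 and 134 CPM in cultured cells, 13.8 and 13.3 CPM in thymus, and 16.5 and 14.5 CPM in fresh MLN. Hsd17b7, a sterol reductase acting in the same demethylation, had 58.3 and 66.7 CPM in cultured cells, 6.88 and 5.05 CPM in thymus, and 6.71 and 5.34 CPM in fresh MLN. For both genes the cultured libraries stood alone at the top. The log2 fold changes over fresh MLN were 3.14 ± 0.08 for Msmo1 (adjusted p = 1.08e-12) and 3.37 ± 0.14 for Hsd17b7 (adjusted p = 9.22e-11). Between these and the low end were Nsdhl, at 1.70 ± 0.10, Dhcr7, at 1.60 ± 0.11, the sterol reductase gene Tm7sf2, at 1.15 ± 0.11, and Ebp, at 1.02 ± 0.08. Tm7sf2 shares 12.1% of its exon length with Vps51 on the same strand. At the low end, Sc5d, a desaturase, had 114 and 111 CPM in cultured cells, 75.3 and 73.0 CPM in thymus, and 92.9 and 89.9 CPM in fresh MLN. Its groups did not overlap, but its log2 fold change in culture was only 0.30 ± 0.06 (adjusted p = 0.000709), and scaling by library totals alone ended that call (adjusted p = 0.289). Cyp51, the lanosterol demethylase, was also modest, with 176 and 171 CPM in cultured cells, 82.9 and 86.9 CPM in thymus, and 112 and 102 CPM in fresh MLN. Its groups were separate and its log2 fold change in culture was 0.69 ± 0.07 (adjusted p = 6.92e-07). In fresh MLN it was the most abundant sterol enzyme per kilobase of exon (24.3 CPM per kb).

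The regulators did not move as a block. Of 6 genes, 5 were higher and 1 lower in cultured than in fresh MLN cells, beside 39.4% higher and 38.1% lower over all genes. The median log2 fold change of the 6 genes was 1.17. Insig1 (ENSMUSG00000045294), itself an SREBP target, had 231 and 231 CPM in cultured cells, 13.2 and 11.2 CPM in thymus, and 13.8 and 10.9 CPM in fresh MLN. The cultured libraries were far above the rest, and the thymus libraries lay within the range of fresh MLN. Its log2 fold change in cultured over fresh MLN cells was 4.23 ± 0.11 (adjusted p = 7.9e-13). Insig2, its paralog that is known not to depend on SREBP in the same way, had 31.1 and 30.3 CPM in cultured cells, 22.3 and 23.3 CPM in thymus, and 24.4 and 24.4 CPM in fresh MLN. It was higher in culture by 0.33 ± 0.08 on the log2 scale (adjusted p = 0.00184), a call lost with library totals alone (adjusted p = 0.222). Per kilobase, the ratio of Insig1 to Insig2 was 8.34 and 8.57 in cultured cells, 0.663 and 0.539 in thymus, and 0.634 and 0.5003 in fresh MLN, so the more abundant paralog was Insig1 in culture and Insig2 in both fresh groups.

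Both SREBP genes were higher in culture. Srebf1 had 309 and 309 CPM in cultured cells, 141 and 134 CPM in thymus, and 113 and 106 CPM in fresh MLN. The 3 groups were separate, in that order, and the fitted level in cultured cells was 2.82 times that in fresh MLN (SE 0.07 on the log2 scale, adjusted p = 2.22e-10). Srebf2 had 388 and 374 CPM in cultured cells, 227 and 209.8 CPM in thymus, and 223 and 199 CPM in fresh MLN. Thymus and fresh MLN overlapped, and culture was higher than fresh MLN by 0.85 ± 0.08 (adjusted p = 2.42e-07). Stard4, a carrier of cholesterol between membranes, was higher by 2.38 ± 0.07, with 150.0 and 143 CPM in cultured cells, 44.5 and 44.9 CPM in thymus, and 29.1 and 26.9 CPM in fresh MLN. Scap was the exception. It had 57.8 and 57.7 CPM in cultured cells, 105 and 107 CPM in thymus, and 99.4 and 103 CPM in fresh MLN. Both cultured libraries lay below all 4 others, and its log2 fold change over fresh MLN was -0.81 ± 0.06 (adjusted p = 6.61e-08). A transcript on the opposite strand overlaps 13.2% of its exon length.

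**Figure D2:**
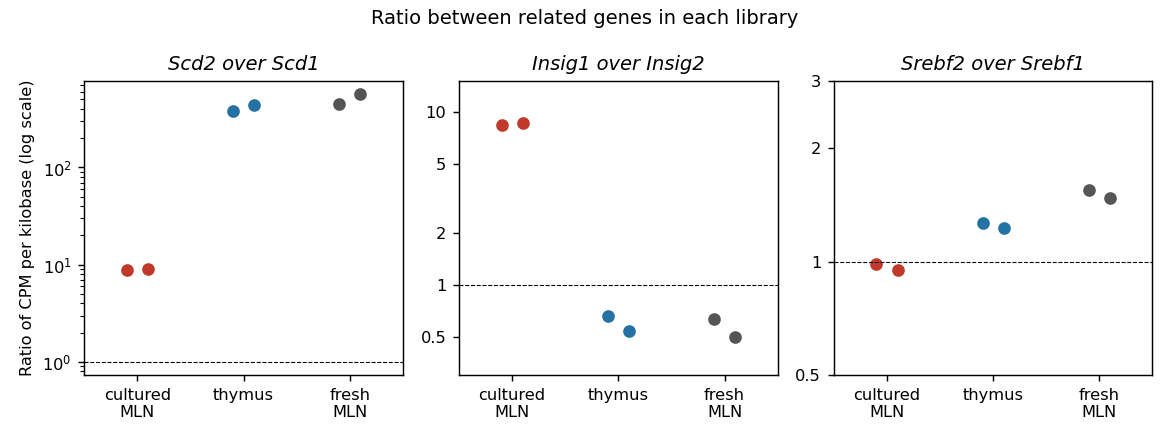
Ratio of CPM per kilobase of exon (log axis) of Scd2 over Scd1, Insig1 over Insig2 and Srebf2 over Srebf1 in each library of cultured MLN, thymus and fresh MLN; 1 point is 1 library and the dashed line marks equal levels. Insig1 exceeded Insig2 in culture, at 8.34 and 8.57, and was the lower of the pair in the other 4 libraries.

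Of 9 other genes that cut, hold or degrade the sterol regulators, 5 were higher and 2 lower in cultured than in fresh MLN cells, beside 77.6% called over all genes, with a median log2 fold change of 0.20. Syvn1, a ubiquitin ligase of the endoplasmic reticulum, averaged 173 CPM in cultured cells and 91.0 CPM in fresh MLN (log2 fold change 0.93 ± 0.06). Rnf139, a ubiquitin ligase with a sterol-sensing domain, averaged 46.7 CPM in cultured cells and 99.0 CPM in fresh MLN (-1.08 ± 0.06). Among 11 genes of sterol esters, transport and side-chain oxidation, 8 were tested, and 7 of these were higher and 1 lower in culture, with a median of 1.07. Over all genes 39.4% were higher and 38.1% lower. Tmem97, a sterol-responsive membrane protein of the endoplasmic reticulum, averaged 48.7 CPM in cultured cells and 4.33 CPM in fresh MLN (3.49 ± 0.12), and Nceh1, a hydrolase of cholesterol esters, averaged 134.6 CPM in cultured cells and 44.7 CPM in fresh MLN (1.59 ± 0.06). Ch25h, Cyp27a1 and Cyp7b1, which make or further convert oxysterols, did not pass the filter on low counts, and each averaged under 1 CPM in every group.

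Fatty acid synthesis rose with the sterol enzymes in culture, with a single exception. Of 8 genes, 7 were higher and 1 lower in cultured than in fresh MLN cells, beside 39.4% higher and 38.1% lower over all genes. The median log2 fold change of the 8 genes was 2.11. Their summed level was 4630.4 and 4663 CPM in cultured cells, against 657 and 587 CPM in fresh MLN, a ratio of means of 7.47. Scd2 alone made up most of the cultured sum, at 2872 CPM in each library, against 141 and 117 CPM in fresh MLN. The ratio of sums therefore rests largely on that gene. Acly, which makes cytosolic acetyl-CoA from citrate, rose by 1.11 ± 0.07, and Acaca, the acetyl-CoA carboxylase, by 2.00 ± 0.09. Acaca shares near-identical sequence with a pseudogene over 64.3% of its transcript, so its counts are uncertain. Fasn (ENSMUSG00000025153), the fatty acid synthase, had 735 and 772 CPM in cultured cells, 258 and 199 CPM in thymus, and 174 and 151 CPM in fresh MLN. The 3 groups were separate, and its log2 fold change in cultured over fresh MLN cells was 2.21 ± 0.11 (adjusted p = 7.44e-10). Elovl6, which elongates the product of Fasn, rose by 1.76 ± 0.12.

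The widest changes were in the desaturases and in malic enzyme. Scd1 (ENSMUSG00000037071), a stearoyl-CoA desaturase, had 293 and 283 CPM in cultured cells, 0.912 and 0.638 CPM in thymus, and 0.283 and 0.186 CPM in fresh MLN. The fresh MLN values stand for 11 and 7 counts, so the gene was near the limit of detection outside culture. Its log2 fold change in cultured over fresh MLN cells was 10.24 ± 0.14 (adjusted p = 7.68e-15). Scd2, the desaturase of the lymphoid and nervous systems, had 2872 and 2872 CPM in cultured cells, 391 and 309 CPM in thymus, and 141 and 117 CPM in fresh MLN. It was the most abundant member per kilobase in culture, at 526 CPM per kb, and its log2 fold change over fresh MLN was 4.48 ± 0.13 (adjusted p = 2.11e-12). Per kilobase, Scd2 exceeded Scd1 by 8.77 and 9.08 times in cultured cells, 384 and 434 times in thymus, and 446 and 563 times in fresh MLN. The transcripts are near-identical over 11.4% of that of Scd2, so some reads may be shared. Me1 (ENSMUSG00000032418), the malic enzyme that supplies NADPH, had 119 and 143 CPM in cultured cells, 0.345 and 0.0798 CPM in thymus, and 1 count and 0 counts in fresh MLN. The ratio of pooled counts in cultured over fresh MLN cells was 10060.0, with an exact 95% counting interval from 1806 to 397500, which covers counting error only. A pseudogene matches 49.8% of the Me1 transcript and a long noncoding RNA gene 35.2%. The sum of 11 markers of stroma, fat and epithelium was 6.19 and 8.19 CPM in cultured cells, 2.39 and 3.08 CPM in thymus, and 2.29 and 1.99 CPM in fresh MLN. Of those that define fat cells, Lep was at 0 in all 6 libraries, Adipoq at 0 in cultured and fresh MLN cells, and Plin1 at 0.0905 CPM or less.

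Acss2, which makes acetyl-CoA from acetate and is a known SREBP target, went the other way. It had 21.6 and 18.6 CPM in cultured cells, 68.4 and 65.4 CPM in thymus, and 81.6 and 81.4 CPM in fresh MLN. The cultured libraries were the lowest and the groups did not overlap. Its log2 fold change in cultured over fresh MLN cells was -2.02 ± 0.08 (adjusted p = 7.43e-11).

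**Figure D3:**
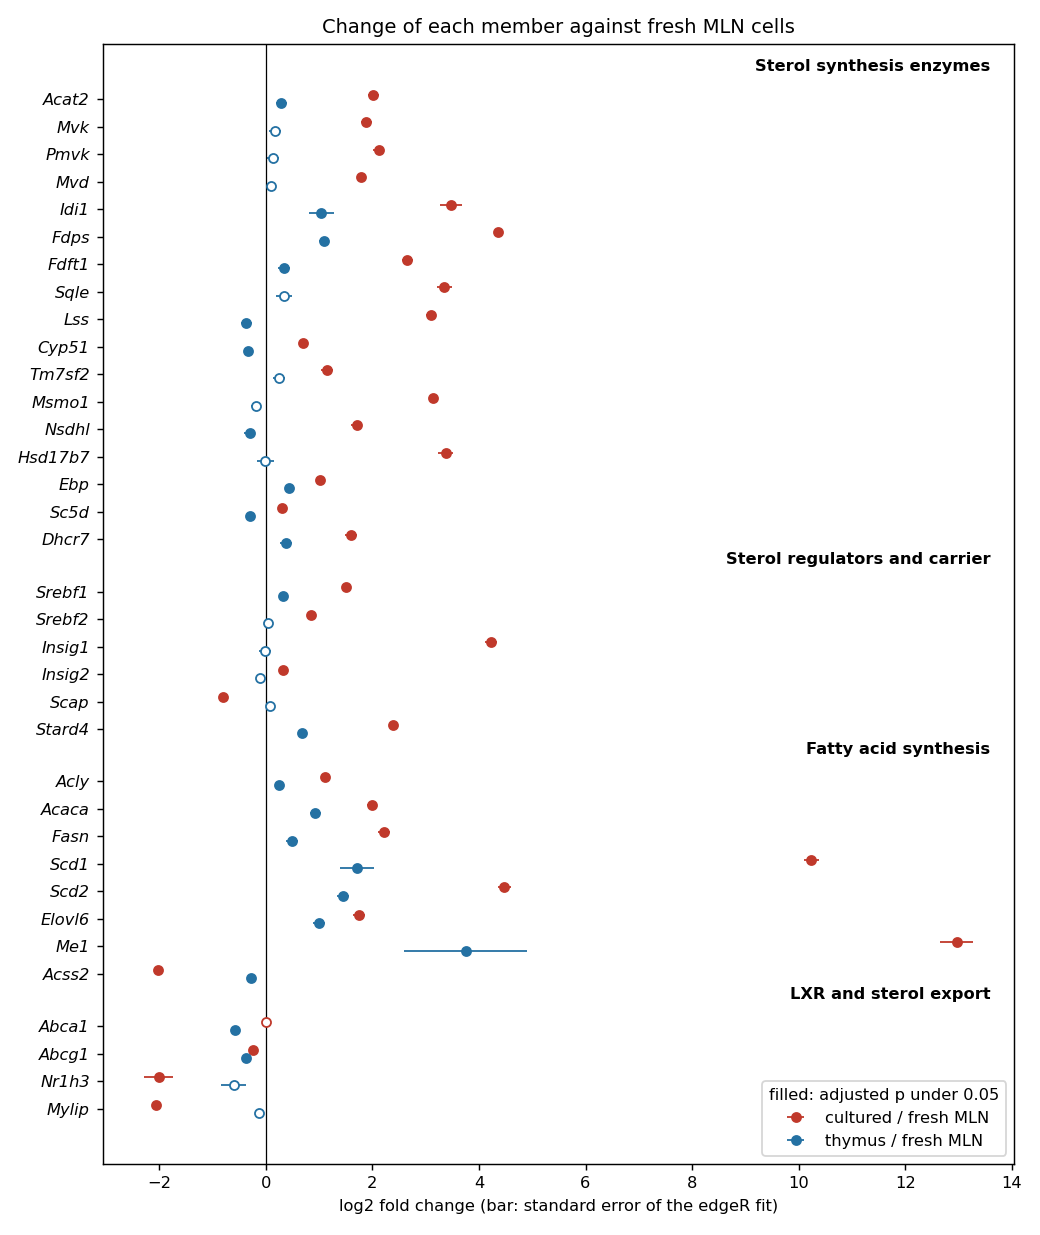
Log2 fold change of each measured member in cultured over fresh MLN cells (red) and in thymus over fresh MLN cells (blue), with the standard error of the fit as a bar; filled points have an adjusted p under 0.05. The 2 comparisons share the fresh MLN libraries. All 17 sterol enzymes lie right of 0 in culture, between 0.30 and 4.36, while thymus points of the same genes lie between -0.36 and 1.09; the red point of Me1 rests on 1 count in fresh MLN.

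In a fixed list of 20 further genes for elongation, desaturation and supply of fatty acids, 16 were higher and 3 lower in cultured than in fresh MLN cells. Over all genes 39.4% were higher and 38.1% lower. The median log2 fold change of the list was 1.19. Fads2, the first desaturase of polyunsaturated fatty acids, averaged 68.7 CPM in cultured cells, 9.21 CPM in thymus and 0.0261 CPM in fresh MLN, where 2 counts were found over both libraries. The ratio of pooled counts was 2634 in cultured over fresh MLN cells, with an exact 95% counting interval from 729 to 21760.0. Elovl7, an elongase of saturated chains, moved against the list, with 0.262 CPM in cultured cells, 37.8 CPM in thymus and 22.4 CPM in fresh MLN on average (log2 fold change -6.41 ± 0.18 in cultured over fresh MLN cells).

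Of the 4 genes placed in the LXR and export class, 3 were lower in cultured than in fresh MLN cells and 1 was not called. The class does not hold every LXR target. Among further LXR genes and targets, given below, 3 were higher and 5 lower in culture. Over all genes tested 77.6% were called, 39.4% higher and 38.1% lower, so calls among 4 genes say little about the class. The median log2 fold change of the 4 members was -1.13. Their summed level was 224 and 244 CPM in cultured cells, against 321 and 329 CPM in fresh MLN. Mylip (ENSMUSG00000038175) had 21.7 and 22.6 CPM in cultured cells, 82.4 and 86.3 CPM in thymus, and 90.2 and 93.7 CPM in fresh MLN. Both cultured libraries lay far below the others, with a log2 fold change of -2.05 ± 0.07 over fresh MLN (adjusted p = 1.65e-11). Nr1h3, which encodes LXR alpha, had 0.664 and 0.579 CPM in cultured cells, 1.68 and 1.62 CPM in thymus, and 2.26 and 2.76 CPM in fresh MLN. It was low in every library, lowest in culture, and its log2 fold change over fresh MLN was -2.01 ± 0.28 (adjusted p = 1.75e-05). Macrophages and dendritic cells express Nr1h3, and their markers went both ways. Among the 11 macrophage and monocyte markers tested, 7 were lower in cultured than in fresh MLN cells, led by Cybb, with 0.0603 and 0.0827 CPM in cultured cells, 0.493 and 0.745 CPM in thymus, and 72.3 and 66.8 CPM in fresh MLN. The 3 that were higher in culture were Adgre1, at 3.76 ± 0.36 on the log2 scale, Cd68, at 2.05 ± 0.17, and Itgam, at 0.78 ± 0.24. Of 7 dendritic cell markers tested, 5 were lower and 1 (Xcr1) higher in culture. The part of these markers in the fall of Nr1h3 was not tested.

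The exporters themselves changed little in culture. Abca1 had 103 and 114 CPM in cultured cells, 74.9 and 69.6 CPM in thymus, and 101 and 115 CPM in fresh MLN. The cultured libraries lay between the 2 fresh MLN libraries, with a log2 fold change of 0.00 ± 0.08 (adjusted p = 0.997); with library totals alone the value was -0.22 and was called lower (adjusted p = 0.0213). Abcg1 had 98.6 and 108 CPM in cultured cells, 93.8 and 95.6 CPM in thymus, and 127 and 118 CPM in fresh MLN. Fresh MLN was the highest group without overlap, and the log2 fold change in culture was -0.25 ± 0.07 (adjusted p = 0.00529); this call was lost without the first cultured library (adjusted p = 0.0876) or without the first fresh MLN library (adjusted p = 0.0584).

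A fixed list of 9 further LXR genes and targets gave 3 higher and 5 lower genes in cultured over fresh MLN cells, with a median of -0.21. Over all genes 39.4% were higher and 38.1% lower. Rxra, the partner receptor of LXR, averaged 9.90 CPM in cultured cells, 77.9 CPM in thymus and 40.1 CPM in fresh MLN (log2 fold change -2.02 ± 0.09 in cultured over fresh MLN cells). Nr1h2, which encodes LXR beta, averaged 129 CPM in cultured cells and 149 CPM in fresh MLN and was called lower; it is named outside the rule for named genes, because it encodes the other LXR form. The 3 higher genes were Lpcat3, an LXR target that remodels phospholipids, Arl4c, another LXR target, and Pltp. Lpcat3 averaged 386 CPM in cultured cells and 103.6 CPM in fresh MLN (1.90 ± 0.07). Arl4c averaged 506 CPM in cultured cells and 154 CPM in fresh MLN (1.72 ± 0.08). Pltp was low, at 1.22 CPM in cultured cells and 0.352 CPM in fresh MLN (1.79 ± 0.37). Rxrb, Smpdl3a and Ncor1 were lower beside Rxra and Nr1h2. Arl4c, Pltp, Rxrb, Smpdl3a and Ncor1 are named outside the same rule, to show both directions.

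**Figure D4:**
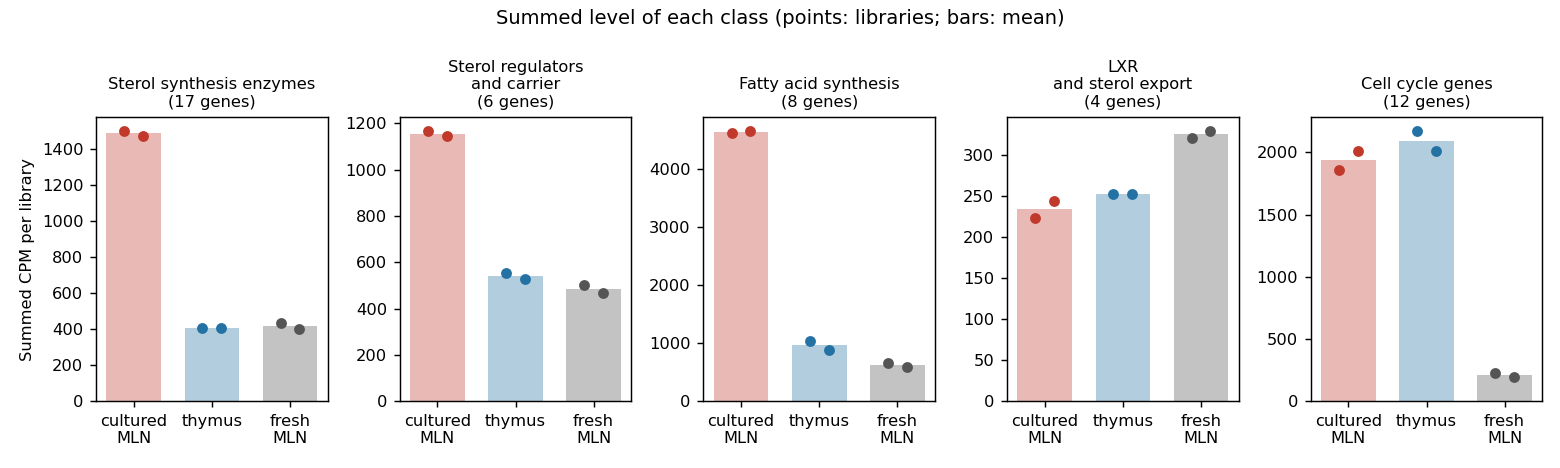
Summed CPM of the 17 sterol enzymes, 6 regulators, 8 fatty acid genes, 4 LXR and export genes and 12 cell cycle genes in cultured MLN, thymus and fresh MLN cells; points are libraries, bars are the mean of 2 libraries, and every axis starts at 0. The cell cycle genes were lowest in fresh MLN, at 228 and 199.9 CPM, and the sterol enzymes in thymus, at 409.7 and 406 CPM, lay beside fresh MLN, at 434 and 403 CPM.

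In ILC2 of the thymus the summed sterol enzymes were near the level of fresh MLN cells. All 12 cell cycle genes were higher in thymus than in fresh MLN, and their summed level was 9.78 times as high. The summed sterol enzymes in thymus were 409.7 and 406 CPM, against 434 and 403 CPM in fresh MLN, so the groups overlapped and the ratio of means was 0.974. Cyp51 and Sc5d, the enzymes with the highest CPM in both groups, weigh most in these sums, and both were lower in thymus. Cyp51 averaged 84.9 CPM in thymus and 107 CPM in fresh MLN, and Sc5d 74.2 and 91.4 CPM. Gene by gene, 6 of the 17 sterol enzymes were higher in thymus, 4 were lower and 7 were not called, with a median log2 fold change of 0.18. Over all genes tested, 47.3% were called in this comparison, 25.3% higher and 22.0% lower. This comparison uses the same 2 fresh MLN libraries as that of cultured cells. Over the 35 members, 15 were higher, 7 lower and 13 not called. T cell and thymocyte markers also moved between these groups, with 4 of 9 tested genes higher in thymus (Rag1, Rag2, Cd4 and Cd3d) and 1 lower. Cd4 had 5.13 and 6.49 CPM in thymus, against 1.00 and 0.930 CPM in fresh MLN (log2 fold change 2.58 ± 0.23), and Rag1 and Rag2 stayed under 1 CPM in every library. The part of the cell cycle genes and of these markers in the thymus results was not tested.

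Of the 6 early enzymes 3 were higher and none lower in thymus. Of the 3 squalene and lanosterol enzymes 1 was higher and 1 lower, and of the 8 enzymes after lanosterol 2 were higher and 3 lower. Over all genes tested, 25.3% were higher and 22.0% lower. Differences between the segments were not tested. Fdps rose by 1.09 ± 0.09 (adjusted p = 6.4e-07) and Idi1 by 1.04 ± 0.24 (adjusted p = 0.00299). Ebp, a sterol isomerase, had 79.6 and 81.7 CPM in cultured cells, 50.3 and 57.3 CPM in thymus, and 39.5 and 39.7 CPM in fresh MLN. Its groups were separate, and thymus was higher than fresh MLN by 0.44 ± 0.08 (adjusted p = 0.000437). The 4 enzymes lower in thymus were Lss, at -0.36 ± 0.10, Cyp51, at -0.34 ± 0.07, Sc5d, at -0.30 ± 0.06, and Nsdhl, a sterol dehydrogenase, at -0.30 ± 0.10. Several of these calls were lost when 1 library was left out, which also leaves fewer libraries to estimate the spread. A lost call therefore need not mean a smaller fold change. Some fold changes held and others shrank. Acat2, at 0.29 in the full fit, stood at 0.30 without the first thymus library and at 0.16 without the first fresh MLN library. Fdft1, at 0.34 in the full fit, stood at 0.36 without the first fresh MLN library and at 0.23 without the first thymus library. Lss shrank to -0.28 without the first fresh MLN library and to -0.22 without the second thymus library. In the same fits Nsdhl shrank to -0.22 and -0.17. Dhcr7 went from 0.39 to 0.20 without the second fresh MLN library. Without the first fresh MLN library, the calls of Acat2 (adjusted p = 0.299), Fdft1 (0.0543), Lss (0.0652) and Nsdhl (0.186) were lost. Without the second fresh MLN library, those of Fdft1 (adjusted p = 0.0945) and Dhcr7, the last enzyme of cholesterol synthesis (0.148), were lost. Leaving out the first thymus library ended the calls of Acat2 (adjusted p = 0.0825) and Fdft1 (0.174), and leaving out the second those of Acat2 (0.0876), Lss (0.0745) and Nsdhl (0.25). Acat2 was lost as well without either cultured library (adjusted p = 0.0569 and 0.0563), with RLE factors (0.055), with DESeq2 (0.111) and with the 2 groups only (0.085). DESeq2 also ended the call of Fdft1 (adjusted p = 0.0541), and library totals alone and a fit of the 2 groups that of Nsdhl (0.053 and 0.0534). In the other direction, Sqle, at 0.34 ± 0.15 (adjusted p = 0.0792), was called higher without the first fresh MLN library (adjusted p = 0.00119) and without the second thymus library (adjusted p = 0.0273), and Msmo1 was called lower without the second fresh MLN library (adjusted p = 0.0407).

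Among the regulators, Srebf1 and Stard4 were higher in thymus than in fresh MLN, by 0.33 ± 0.07 (adjusted p = 0.0014) and 0.67 ± 0.07 (adjusted p = 6.14e-06). Insig1, Insig2, Srebf2 and Scap were not called, with log2 fold changes between -0.10 and 0.07. Insig1 stood at -0.02 ± 0.11 in thymus over fresh MLN, beside 4.23 ± 0.11 in cultured over fresh MLN cells.

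Fatty acid synthesis genes were mostly higher in thymus. Of 8 genes, 7 were higher than in fresh MLN and Acss2 was lower, beside 25.3% higher and 22.0% lower over all genes tested, with a median log2 fold change of 0.97. The summed level was 1045 and 888 CPM in thymus, against 657 and 587 CPM in fresh MLN, a ratio of means of 1.56. Of these sums Scd2 held 391 and 309 CPM in thymus and 141 and 117 CPM in fresh MLN. Scd2 rose by 1.44 ± 0.11 (adjusted p = 3.22e-07), Elovl6 by 1.00 ± 0.12 (adjusted p = 1.33e-05), Acaca by 0.93 ± 0.10 (adjusted p = 4.14e-06) and Fasn by 0.49 ± 0.11 (adjusted p = 0.00227). Scd1, though higher in thymus by 1.72 ± 0.31 (adjusted p = 0.000641), stayed under 1 CPM in both thymus libraries. Me1 had 14 and 3 counts in thymus against 1 and 0 counts in fresh MLN, a pooled count ratio of 16.6 with an exact 95% counting interval from 2.61 to 696, and its call was lost without the second fresh MLN library (adjusted p = 0.0903) or the first thymus library (adjusted p = 0.232). The call of Acly, at 0.25 ± 0.07, was lost without the second fresh MLN library (adjusted p = 0.081). In the list of 20 further fatty acid genes, 13 were higher and 1 lower, with Fads2 at 725 counts in thymus against 2 counts in fresh MLN, and Idh1, another source of NADPH, at 10.1 CPM in thymus and 4.37 CPM in fresh MLN (1.21 ± 0.12).

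The exporters were lower in thymus. Abca1 fell by 0.58 on the log2 scale (SE 0.08, adjusted p = 6.97e-05) and Abcg1 by 0.37 (SE 0.07, adjusted p = 0.000733), with both thymus libraries below both fresh MLN libraries for each gene. Mylip and Nr1h3 were not called, at -0.12 ± 0.07 and -0.60 ± 0.24. Nr1h3 lay at the threshold (adjusted p = 0.0508) and was called with RLE factors (adjusted p = 0.0417), upper-quartile factors (0.045) and a fit of the 2 groups only (0.0462). Over all genes tested, 25.3% were higher and 22.0% lower in thymus than in fresh MLN. Of the macrophage and monocyte markers tested, 0 were higher and 5 lower in thymus, and of the 7 dendritic cell markers tested 1 was higher and 4 lower. Their part in the lower Abca1 and Abcg1 was not tested. Rxra and Arl4c, an LXR target, were higher in thymus than in fresh MLN, by 0.96 ± 0.07 and 0.78 ± 0.08.

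All 17 sterol enzymes were higher in cultured cells than in thymus, with log2 fold changes between 0.59 and 3.46 and a median of 1.98. The cell cycle genes gave 5 higher and 4 lower genes of 12 in the same comparison, a median of -0.12 and a ratio of summed means of 0.926. The sterol sum was 3.65 times as high in cultured cells, and the fatty acid sum 4.81 times. Within the fatty acid sum, Scd2 averaged 2872 CPM in cultured cells and 350 CPM in thymus. Over all genes tested, 72.7% were called, 34.8% higher and 37.8% lower in cultured cells, with a median of -0.06. Over the members, 30 were higher, 4 lower and 1 not called. Library totals alone moved the median of all genes to -0.32 and the higher share of calls to 35.1%, against 47.9% with TMM factors, and left 29 members higher and 4 lower.

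The order of the enzymes against thymus was led by Lss, higher by 3.46 ± 0.10 (adjusted p = 2.66e-12), followed by Hsd17b7 at 3.38 ± 0.14, Msmo1 at 3.33 ± 0.08 and Fdps at 3.28 ± 0.08. Differences among these 4 were not tested. Ebp and Sc5d were at the low end, at 0.59 ± 0.08 and 0.60 ± 0.06. Insig1 was higher by 4.25 ± 0.11 (adjusted p = 1.06e-12) and Scap lower, at -0.88 ± 0.06 (adjusted p = 3.66e-08). Acss2 was lower in cultured cells than in thymus as well, at -1.74 ± 0.08 (adjusted p = 4.75e-10), and so were Mylip, at -1.93 ± 0.07 (adjusted p = 4.36e-11), and Nr1h3, at -1.41 ± 0.29 (adjusted p = 0.000639). The exporters did not follow Mylip. Abca1 was higher by 0.58 ± 0.08 in cultured cells than in thymus (adjusted p = 2.48e-05), and Abcg1, at 0.12 ± 0.07, was not called (adjusted p = 0.128); it was called higher with RLE factors (adjusted p = 0.0329) and turned to -0.13 with library totals alone.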

How the data were processed

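Messenger RNA libraries of 6 ILC2 samples (Illumina TruSeq Stranded mRNA kit, per the labels) were analysed from 6 tables of raw counts per Ensembl gene, as the authors deposited them, with no normalization. Counting was done with HTSeq 0.5.3p9 on mm9 or NCBIM37, per the submitters' processing notes; not given in the sources used here are the aligner, annotation release, strand setting and handling of multiply mapped reads. Of 37991 identifiers, 32938 received a symbol from GENCODE M21, whose exon lengths, of a later build, make levels per kilobase approximate; 0 named anything but a gene.

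Groups follow the sample titles. After filterByExpr, 16231 of 23871 genes with a count were tested in R 4.3.3 with edgeR 4.0.16 (TMM factors, all 6 libraries in 1 fit with group means, quasi-likelihood F test, two-sided, Benjamini-Hochberg adjustment, called under 0.05). The SE of a log2 fold change is its size divided by the square root of F; 3 residual degrees of freedom were shared. In data simulated from these libraries, 94 of 100 genes changed 1.5-fold and 100 of 100 changed 2-fold in cultured over fresh MLN cells were called, of 15816 genes. The changed genes were drawn from those averaging over 5 CPM, so recovery at lower levels was not measured. All other genes were simulated without a change, whereas 77.6% of genes were called in the real comparison. With 2 libraries a group, no permutation test of single values was run. The 2 libraries of each group differed by more than counting noise; whether they are technical repeats of 1 source is not stated. Libraries of the same number share a number only (correlation of deviations 0.03 between cultured and fresh MLN).

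The members and lists were chosen with earlier results of these data known. All members are named. Of each further list and comparison, up to 2 called genes are named, taken by absolute log2 fold change among those averaging 5 CPM or more in either group. Of the further LXR genes, all that were called in cultured over fresh MLN cells are named as well. Lists were not tested as sets. Alternatives were RLE, upper-quartile and no scaling factors, no filter, a filter of 5 CPM in 2 libraries, DESeq2 1.42.0, a replicate block, a test against a 2-fold change, fits to the 2 groups compared, and leaving out each library; in the last, the lone library of a group is assumed to vary like the others.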

Additional observations from a re-analysis of the deposited data

How the results depend on the processing

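Under the alternatives, directions in culture held for all members other than Abca1 and Abcg1. Abca1, uncalled at 0.00 in cultured over fresh MLN cells, turned to -0.0248 with upper-quartile factors, -0.223 with library totals alone, -0.0020 without a filter, -0.0136 with the stricter filter and -0.0035 with the 2 groups only, and ran from -0.0918 to 0.0884 when 1 library was left out; the cause was not tested. Abcg1 in cultured cells over thymus turned to -0.134 with library totals. In thymus over fresh MLN, uncalled genes changed sign: Hsd17b7 became 0.0240 and Insig1 0.0161 with library totals, and leaving out 1 library gave -0.249 to 0.196 for Hsd17b7, -0.184 to 0.168 for Insig1 and -0.0340 to 0.138 for Srebf2.

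Library totals alone lowered the class medians with the median of all genes (-0.23 in cultured over fresh MLN, -0.32 in cultured over thymus): to 1.80 for sterol enzymes, 0.95 for regulators, 1.88 for fatty acid genes and -1.35 for LXR and export genes over fresh MLN, and to 1.72, 0.73, 1.13 and -0.90 over thymus. The stricter filter removed Nr1h3, and the LXR and export median became -0.26 in cultured over fresh MLN, -0.39 in thymus over fresh MLN and 0.12 in cultured over thymus, a change of sign that follows from the lost gene. In cultured over thymus, sterol and regulator medians were 2.03 and 1.04 with RLE factors and the same with DESeq2, and the regulator median was 1.02 with the 2 groups only. Leaving out 1 library each gave sterol medians from 1.93 to 2.13 in cultured over fresh MLN and from 1.87 to 1.97 in cultured over thymus, and regulator medians from 0.93 to 1.03 in cultured over thymus and from 0.0278 to 0.153 in thymus over fresh MLN. Members called then numbered 33 to 34 in cultured over fresh MLN, 19 to 21 in thymus over fresh MLN and 34 in cultured over thymus.

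A test against a 2-fold change called 5676 genes in cultured over fresh MLN, 1298 in thymus over fresh MLN and 4455 in cultured over thymus, with 25, 1 and 22 members; fewer calls follow from its construction. DESeq2 called 29 members higher and 5 lower in cultured over fresh MLN, 13 and 7 in thymus over fresh MLN (losing Acat2 and Fdft1), and 30 and 4 in cultured over thymus. With a replicate block, 12738, 8049 and 11944 genes and 34, 23 and 34 members were called in the same 3 comparisons, the added member being Sqle in thymus over fresh MLN (adjusted p = 0.0264); the block changed no other member's call. Library numbers gave correlations of deviations of 0.03, 0.12 and 0.02 and are not known to pair samples. Depth limits Me1 in fresh MLN and thymus, and Scd1 in fresh MLN.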

Other observations

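The branches that leave the sterol pathway at farnesyl pyrophosphate did not rise with it. Of 13 genes for ubiquinone, dolichol and protein prenylation, 4 were higher and 4 lower in cultured than in fresh MLN cells. Over all genes 39.4% were higher and 38.1% lower. The median log2 fold change of the 13 genes was 0.05, beside 2.02 for the 17 sterol enzymes. Dhdds, a subunit of the enzyme that makes the dolichol chain, averaged 65.2 CPM in cultured cells, 51.3 CPM in thymus and 37.1 CPM in fresh MLN (log2 fold change 0.81 ± 0.08 in cultured over fresh MLN cells). Coq2, which joins the isoprenoid tail to the ring of ubiquinone, averaged 22.8 CPM in cultured cells, 50.4 CPM in thymus and 57.9 CPM in fresh MLN (-1.34 ± 0.08). In thymus over fresh MLN, 4 of the 13 were higher and 3 lower, beside 25.3% and 22.0% over all genes. Among the higher was Fntb, the beta subunit of farnesyltransferase, at 13.5 CPM in thymus and 9.22 CPM in fresh MLN (0.55 ± 0.15). In cultured over thymus cells 4 were higher and 4 lower, beside 34.8% and 37.8% over all genes. Rabggtb, a subunit of the enzyme that adds geranylgeranyl groups to Rab proteins, averaged 75.3 CPM in cultured cells and 41.1 CPM in thymus (0.88 ± 0.07).

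Within the sterol enzymes the order of levels per kilobase of exon also differed between groups. The highest was Mvd in cultured cells, at 41.8 CPM per kb, Ebp in thymus, at 23.3 CPM per kb, and Cyp51 in fresh MLN, at 24.3 CPM per kb, and Idi1 was the lowest in all 3 groups, at 3.11 CPM per kb in cultured cells, 0.573 in thymus and 0.279 in fresh MLN. The median enzyme stood at 21.2 CPM per kb in cultured cells, 3.13 in thymus and 3.06 in fresh MLN.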
